A study of Mus musculus with 12 samples.

Results

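The genes described here are *Sla*, *Glipr2*, *Atp8b4*, *Phf10*, *Mib2*, *Cyb5r2*, *Fam84b*, *Tsc22d3* and *Slamf9*, 9 of the 55536 genes counted in activated B cells with and without Pdap1. They were chosen by their counts, which were higher after Pdap1 loss in both cultures, and because they are not among the widely known genes of amino acid metabolism. Their difference between genotypes is therefore given as a description, without a test. RNA-seq was performed on splenic B cells of 6 C57BL/6 mice, 3 controls and 3 Pdap1-deficient *Pdap1*F/F mice. Every mouse, controls included, carried a Cre recombinase active in B cells, and in the *Pdap1*F allele the LoxP sites flank exon 2. From every animal, cells were stimulated over 48 h in 2 ways, with LPS plus IL-4 (the switch to IgG1, called LPS-IL-4) and with LPS plus BAFF and TGFβ (the switch to IgG2b, called LPS-BAFF-TGFβ), which gave 12 libraries in 4 groups of 3 mice. The labels also name the CH12 line as cell line, whereas the study's methods describe primary splenic B cells. By the study's methods mice of both sexes were used in groups matched for age, and the age of each mouse was not given in the sources used here.

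The 9 proteins do not form a pathway. *Slamf9* encodes a cell surface receptor of the SLAM family, most of whose members bind their own kind on neighbouring leukocytes, and *Sla* encodes the Src-like adaptor SLAP, which brings the ubiquitin ligase Cbl to antigen receptors and so lowers their number at the surface. *Atp8b4* encodes a P4-type ATPase, a class of flippases that move phospholipids between membrane leaflets. *Glipr2* encodes a protein of the Golgi membrane that binds Beclin 1 and restrains autophagy, *Cyb5r2* a reductase that passes electrons from NADH to cytochrome b5, and *Fam84b* a protein with an LRAT domain. *Phf10* encodes a PHD finger subunit of the chromatin remodeler PBAF, *Mib2* a ubiquitin ligase that acts on Notch ligands, and *Tsc22d3* the leucine zipper protein GILZ, which glucocorticoids and FoxO factors induce in lymphocytes. Atf4, the transcription factor of the integrated stress response, binds with C/EBP proteins to a composite element that contains the letters TGATGNAA.

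Promoter sequences from RefSeq on GRCm38.p6, running from 250 bases before to 50 bases after the annotated start, were at hand for 7 of the 9 genes, in 10 windows. *Sla* and *Fam84b* had none. The element TGATGNAA, searched on both strands, lay in the promoters of *Slamf9* and *Cyb5r2*, which are shown here for this reason and because these genes had the largest fold differences in the LPS-IL-4 cultures. The window of *Slamf9* is chr1:172475110-172475409 on the plus strand and that of *Cyb5r2* chr7:107757983-107758282 on the minus strand. Each sequence is written from 5′ to 3′ in the direction of transcription, and the capitals mark the match, which reads in reverse complement in both genes.
Slamf9: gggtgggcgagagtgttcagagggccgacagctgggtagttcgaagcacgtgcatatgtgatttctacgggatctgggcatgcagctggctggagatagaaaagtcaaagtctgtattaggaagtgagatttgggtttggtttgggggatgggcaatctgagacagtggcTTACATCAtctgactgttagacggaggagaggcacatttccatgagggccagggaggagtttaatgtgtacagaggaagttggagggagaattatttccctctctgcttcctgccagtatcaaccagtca
Cyb5r2: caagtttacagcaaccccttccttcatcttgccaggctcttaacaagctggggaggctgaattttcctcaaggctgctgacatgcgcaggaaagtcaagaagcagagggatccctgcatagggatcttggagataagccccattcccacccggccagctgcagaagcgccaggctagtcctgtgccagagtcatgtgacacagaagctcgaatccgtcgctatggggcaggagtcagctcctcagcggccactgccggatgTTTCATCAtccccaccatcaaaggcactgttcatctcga
The match in *Slamf9*, tgatgtaa, began 80 bases before the start of the gene, and that in *Cyb5r2*, tgatgaaa, 11 bases after it. The letters were found in a promoter of 4.51% of 27025 genes, against 2 of the 7 genes described here and 8 of 21 genes of a list of Atf4 targets. The cAMP response element TGACGTCA and the FoxO site GTAAACA were in none of the 7, with shares of 2.03% and 4.05% among all genes. The AP-1 site TGAGTCA was found in *Atp8b4* (38 bases before the start, 5.95% of all genes), and the antioxidant response element TGACNNNGC in *Mib2* (14% of all genes). These matches describe letters in a window and no factor's binding.

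Library depth lay between 9386667 and 15869143 counts in the LPS-IL-4 cultures. In the LPS-BAFF-TGFβ cultures it lay between 4579793 and 8303482, except for control mouse 1 with 69500640. The deleted gene *Pdap1* was at 91.4 to 97.8 CPM (counts scaled to the library total) in control and 23.3 to 29.9 CPM in Pdap1-deficient LPS-IL-4 cultures (log2 fold change −1.82 ± 0.11 SE, adjusted p = 3.5e-05 by Benjamini-Hochberg in edgeR's quasi-likelihood test). In LPS-BAFF-TGFβ cultures *Pdap1* was at 199, 80.3 and 100 CPM in control mice 1 to 3 and 23.0 to 26.4 CPM in Pdap1-deficient mice (−2.33 ± 0.36, adjusted p = 0.0929 in the same test). The 199 CPM came from the deep library of control mouse 1. Every Pdap1-deficient mouse was below every control mouse. Exons outside the LoxP sites still add to this count. The summed level of 5 B cell markers (*Ms4a1*, *Cd79a*, *Cd79b*, *Pax5*, *Blnk*) was 2714 to 2735 CPM in control LPS-IL-4 libraries. In Pdap1-deficient LPS-IL-4 libraries it was 2862 to 3089 CPM, without overlap. With LPS-BAFF-TGFβ it was 2069 to 2214 CPM in control and 2069 to 2270 CPM in Pdap1-deficient libraries. None of the 5 was called between genotypes in either culture by edgeR, with 0 at an unadjusted p under 0.05 and 0 by DESeq2. Markers of myeloid cells stood apart in Pdap1-deficient mouse 2, with a sum over 9 markers of 325 CPM in LPS-IL-4 and 559 CPM in LPS-BAFF-TGFβ. Mouse 3 of that genotype had 35.0 and 80.0 CPM, mouse 1 had 7.39 and 11.9 CPM, and the 6 control libraries had between 5.76 and 25.3 CPM. T cell markers (9 genes) summed to 29.2 and 14.2 CPM in Pdap1-deficient mouse 2 and to between 1.22 and 13.1 CPM in all other libraries. In bulk RNA a change in the number of cells that express a gene and a change in RNA per cell cannot be told apart.

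**Figure D1:**
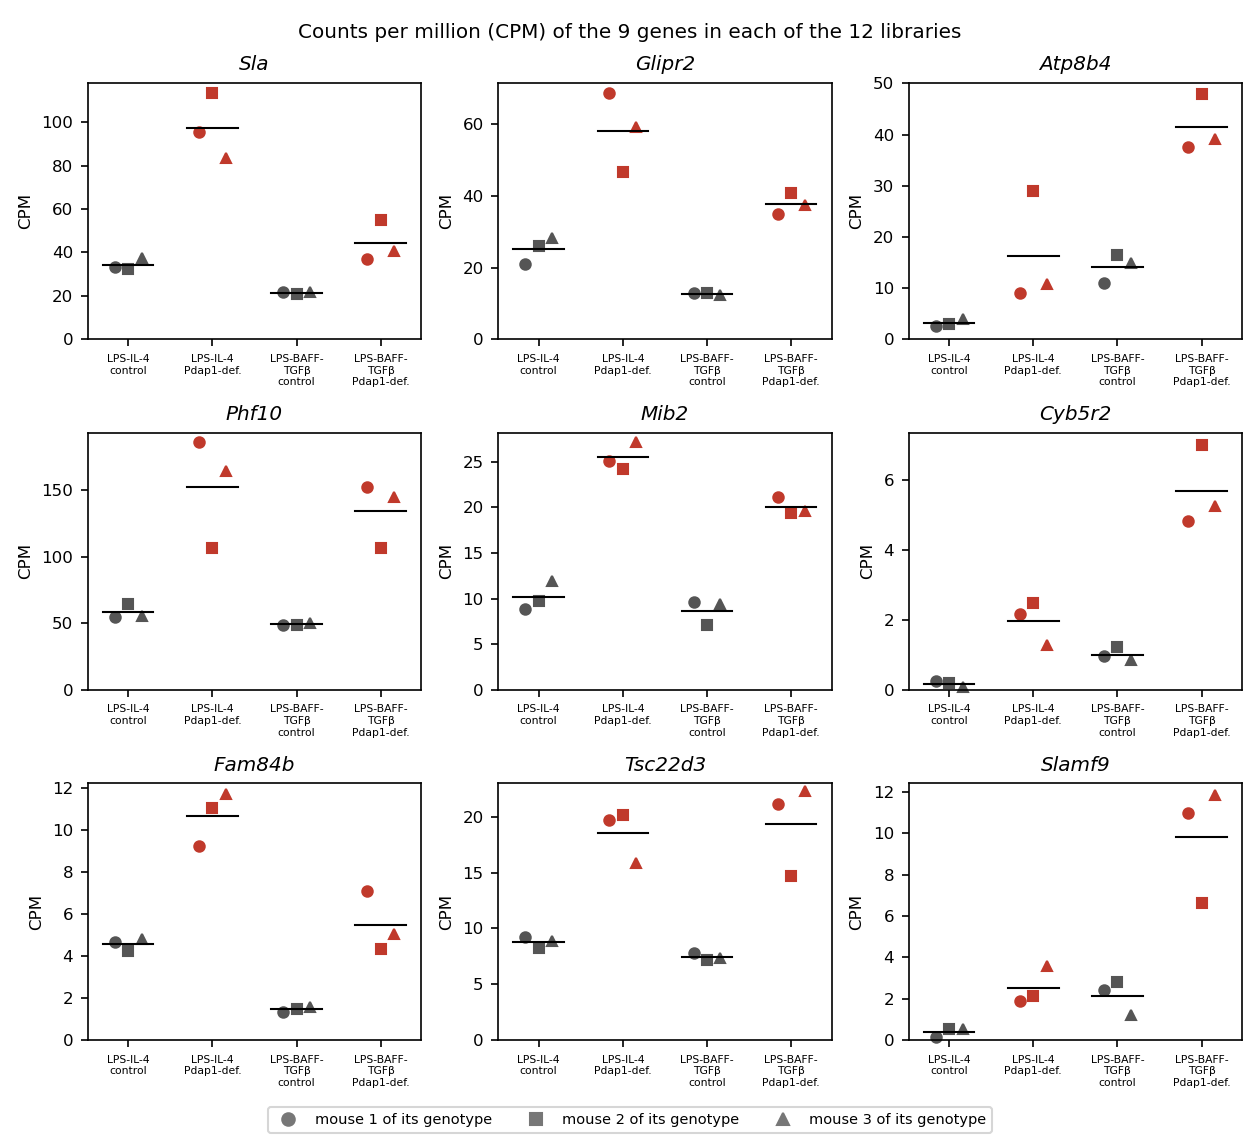
Level of each gene in CPM (counts scaled to the library total, vertical axis from 0) in the 12 libraries, with control mice in grey, Pdap1-deficient mice in red, a symbol for each mouse number within its genotype and a line at the mean of 3 mice. In all 9 panels the 3 Pdap1-deficient mice lie above the 3 control mice of the same culture.

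For all 9 genes the lowest Pdap1-deficient mouse exceeded the highest control mouse, with LPS-IL-4 as well as with LPS-BAFF-TGFβ, and the genes were chosen by this difference. Of all genes tested, 15.5% had this arrangement in LPS-IL-4 cultures and 9.55% in LPS-BAFF-TGFβ cultures. The choice also fixed that all 9 had an adjusted p under 0.05 in both fits, and nothing is read from this count. For reference, 2.79% of all genes tested were called higher in LPS-IL-4 (2.12% lower) and 0.455% higher in LPS-BAFF-TGFβ (0.0071% lower). The median log2 fold change of the 9 was 1.38 in LPS-IL-4 and 1.57 in LPS-BAFF-TGFβ, beside 0.02 and 0.01 over all genes tested. The filter on low counts kept all 9 in both fits. *Cyb5r2* and *Slamf9*, and *Fam84b* in LPS-BAFF-TGFβ cultures, passed it only through the Pdap1-deficient mice, in which they were high.

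The receptor *Slamf9* (ENSMUSG00000026548, chr1:172475358-172478575) was at 0.165, 0.540 and 0.526 CPM in control mice 1 to 3 and at 1.87, 2.13 and 3.60 CPM in Pdap1-deficient mice 1 to 3 with LPS-IL-4. With LPS-BAFF-TGFβ it was at 2.40, 2.80 and 1.22 CPM in control mice and at 10.97, 6.61 and 11.8 CPM in Pdap1-deficient mice. The groups did not overlap in either culture, and mouse 2, with its high myeloid markers, was the lowest Pdap1-deficient mouse in LPS-BAFF-TGFβ and the middle one in LPS-IL-4. The log2 fold change was 2.58 ± 0.46 (SE) in LPS-IL-4 and 2.19 ± 0.34 in LPS-BAFF-TGFβ. In LPS-IL-4 these levels rest on 14 counts in control and 93 in Pdap1-deficient mice, a depth-corrected ratio of 6.09 with an exact 95% interval of 3.45 to 11.6 that covers counting error only.

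The adaptor *Sla* (ENSMUSG00000022372, chr15:66780819-66831829) was at 33.1, 32.5 and 37.6 CPM in control mice and at 95.3, 114 and 83.3 CPM in Pdap1-deficient mice with LPS-IL-4. In LPS-BAFF-TGFβ cultures it was at 21.7, 20.8 and 21.9 CPM and at 36.9, 55.1 and 40.6 CPM. Control mice were within a narrow range in both cultures, and Pdap1-deficient mouse 2 was the highest in both. For this gene the log2 fold change was 1.49 ± 0.13 in LPS-IL-4 and 1.05 ± 0.17 in LPS-BAFF-TGFβ, where it was 0.84 without mouse 2. *Sla* lies inside *Tg*, the thyroglobulin gene on the opposite strand, without a shared exon base. *Tg* was at 0.906 to 2.63 CPM in control and 3.17 to 5.05 CPM in Pdap1-deficient LPS-IL-4 cultures, without overlap. With LPS-BAFF-TGFβ it was at 2.54 to 3.77 and 3.17 to 4.96 CPM, with overlap.

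The flippase gene *Atp8b4* (ENSMUSG00000060131, chr2:126320973-126500674) was at 2.72, 2.97 and 3.94 CPM in control mice and at 9.10, 28.9 and 10.8 CPM in Pdap1-deficient mice with LPS-IL-4. The LPS-BAFF-TGFβ cultures had it at 11.01, 16.5 and 15.0 CPM and at 37.6, 47.9 and 39.2 CPM. Pdap1-deficient mouse 2 was the highest in both cultures and stood far above mice 1 and 3 with LPS-IL-4. The log2 fold change was 2.33 ± 0.48 in LPS-IL-4, where it was 1.63 without mouse 2, and 1.57 ± 0.19 in LPS-BAFF-TGFβ. In Pdap1-deficient mouse 1 the myeloid markers were within the range of control mice in LPS-IL-4 and below it in LPS-BAFF-TGFβ. The *Atp8b4* level of this mouse was 2.79 times the control mean in LPS-IL-4 and 2.67 times in LPS-BAFF-TGFβ. The part of myeloid cells in the *Atp8b4* level was not tested.

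*Glipr2* (ENSMUSG00000028480, chr4:43957401-43979118) was at 21.1, 26.1 and 28.2 CPM in control mice and at 68.7, 46.6 and 59.0 CPM in Pdap1-deficient mice with LPS-IL-4. With LPS-BAFF-TGFβ it was at 12.9, 12.9 and 12.4 CPM and at 35.0, 40.9 and 37.5 CPM. Mouse 2 was the lowest Pdap1-deficient mouse in LPS-IL-4 and the highest in LPS-BAFF-TGFβ. For this gene the log2 fold change was 1.20 ± 0.17 and 1.57 ± 0.14 in the 2 cultures.

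*Cyb5r2* (ENSMUSG00000048065, chr7:107748455-107758032) had the lowest CPM of the 9 in control mice of both cultures, at 0.247, 0.180 and 0.0876 CPM with LPS-IL-4, where Pdap1-deficient mice had 2.18, 2.49 and 1.27 CPM. In LPS-BAFF-TGFβ cultures it was at 0.95, 1.22 and 0.85 CPM and at 4.84, 7.02 and 5.28 CPM. Its log2 fold changes, 3.46 ± 0.50 and 2.51 ± 0.31, were the largest of the 9 in both cultures. The first rests on only 6 counts in the 3 control mice against 81, a depth-corrected ratio of 12.4 with an exact 95% interval of 5.44 to 34.7. The second rests on 77 against 109 counts, a ratio of 6.14 with an interval of 4.54 to 8.33. Both intervals cover counting error only and not the spread between mice. Of the 77 counts, 60 came from the deep library of control mouse 1. Its 5′ end shares 129 exon bases with *Ppfibp2* on the opposite strand. *Ppfibp2* was at 15.1 to 18.6 CPM in control and 19.3 to 38.9 CPM in Pdap1-deficient LPS-IL-4 cultures, at 54.9 to 63.3 and 61.3 to 78.0 CPM with LPS-BAFF-TGFβ, and the part of shared reads was not tested.

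*Fam84b* (ENSMUSG00000072568, chr15:60818994-60853778) was at 4.69, 4.23 and 4.82 CPM in control mice and at 9.26, 11.1 and 11.7 CPM in Pdap1-deficient mice with LPS-IL-4. The LPS-BAFF-TGFβ cultures had it at 1.35, 1.46 and 1.58 CPM and at 7.10, 4.34 and 5.04 CPM. The Pdap1-deficient LPS-BAFF-TGFβ cultures thus came close to the control LPS-IL-4 cultures, and mouse 1 was the lowest of its genotype in LPS-IL-4 and the highest in LPS-BAFF-TGFβ. The log2 fold change was 1.21 ± 0.18 and 1.93 ± 0.30. *Fam84b* shares 2474 exon bases with the transcript *9930014A18Rik* on the opposite strand, which was at 0.619 to 4.68 CPM in the 12 libraries. Whether counting used strand was not given in the sources used here, so their reads may not be fully separated.

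The PBAF subunit gene *Phf10* (ENSMUSG00000023883, chr17:14945009-14961273) was the most abundant of the 9, at 54.4, 64.6 and 55.6 CPM in control mice and 186, 107 and 165 CPM in Pdap1-deficient mice with LPS-IL-4. With LPS-BAFF-TGFβ it was at 48.9, 48.5 and 50.2 CPM and at 153, 106 and 145 CPM. Mouse 2 was the lowest Pdap1-deficient mouse in both cultures, the reverse of *Sla* and *Atp8b4*. For this gene the log2 fold change was 1.38 ± 0.20 and 1.46 ± 0.15, and 1.60 and 1.58 without mouse 2. *Phf10* shares 470 exon bases with *1600012H06Rik* on the opposite strand, which was at 12.6 to 18.3 CPM in control and 15.9 to 19.6 CPM in Pdap1-deficient LPS-IL-4 cultures. In LPS-BAFF-TGFβ cultures the latter was at 10.2 to 15.0 CPM in control and 18.2 to 20.7 CPM in Pdap1-deficient mice, without overlap, and the part of shared reads in *Phf10* was not tested.

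*Mib2* (ENSMUSG00000029060, chr4:155654677-155669198) was at 8.81, 9.71 and 11.9 CPM in control mice and at 25.1, 24.2 and 27.2 CPM in Pdap1-deficient mice with LPS-IL-4. In LPS-BAFF-TGFβ cultures it was at 9.63, 7.06 and 9.38 CPM and at 21.1, 19.4 and 19.6 CPM. The Pdap1-deficient mice lay close together in both cultures. The log2 fold change was 1.32 ± 0.15 and 1.20 ± 0.18.

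*Tsc22d3* (ENSMUSG00000031431, chrX:140539528-140600659) was at 9.22, 8.27 and 8.85 CPM in control mice and at 19.7, 20.2 and 15.9 CPM in Pdap1-deficient mice with LPS-IL-4. The LPS-BAFF-TGFβ cultures had it at 7.84, 7.18 and 7.31 CPM and at 21.1, 14.7 and 22.3 CPM. The gene is X-linked, and *Xist*, the transcript of the inactive X chromosome, was at 718 CPM or more in control mice 1 and 3 and Pdap1-deficient mouse 1 and at 8.47 CPM or less in the other mice. Pdap1-deficient mouse 3, low in *Xist*, had the lowest *Tsc22d3* of its genotype in LPS-IL-4 and the highest in LPS-BAFF-TGFβ. For this gene the log2 fold change was 1.07 ± 0.15 and 1.39 ± 0.20.

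**Figure D2:**
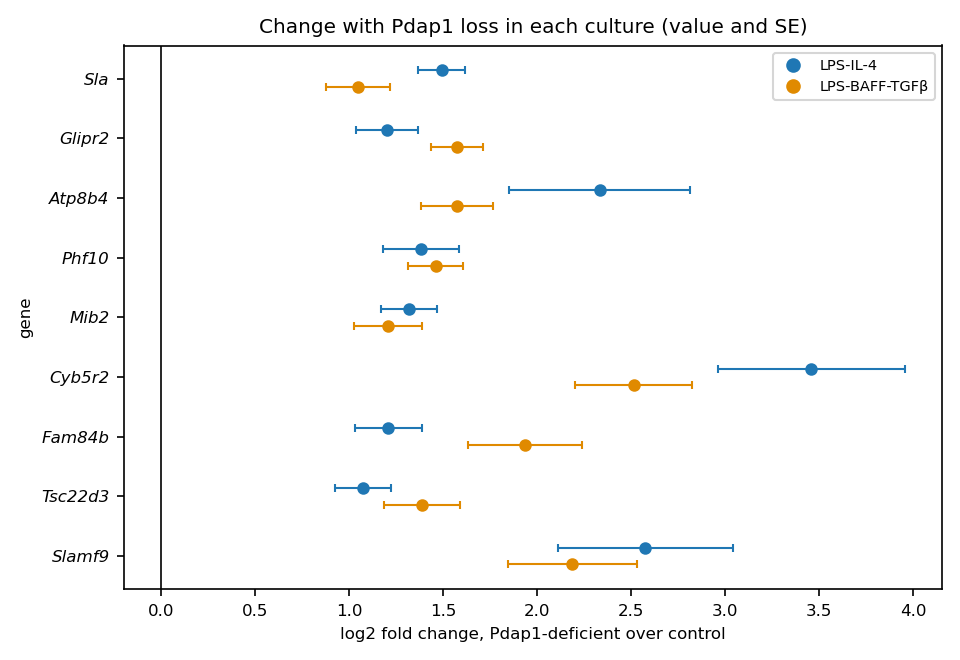
Log2 fold change of Pdap1-deficient over control mice (horizontal axis) for the 9 genes, as value and standard error (bars) of the edgeR fit in LPS-IL-4 (blue) and LPS-BAFF-TGFβ (orange) cultures of 3 mice per genotype. All values lie between 1.05 and 3.46, and those of *Cyb5r2* are the largest in both cultures.

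The change was also followed in each Pdap1-deficient mouse. The 9 genes were chosen by their higher level in these same mice. A raised median in each mouse follows from this choice, and nothing is read from it. Relative to the mean of the control mice on the log2 scale, the median change of the 9 genes in mice 1, 2 and 3 was 1.47, 1.25 and 1.42 in LPS-IL-4 and 1.49, 1.48 and 1.55 in LPS-BAFF-TGFβ. The median hides opposite shifts of single genes in mouse 2 in LPS-IL-4. *Atp8b4* changed by 3.14 there, against 1.48 in mouse 1 and 1.72 in mouse 3. *Phf10* changed by 0.88 in mouse 2, the lowest of the 3 mice, against 1.68 in mouse 1. In mouse 1, where *Lyz2*, which encodes the lysozyme of macrophages and neutrophils, was at 0.0778 and 0.645 CPM, the 9 genes were between 1.99 and 7.64 times the control mean in LPS-IL-4 and between 1.72 and 5.13 times in LPS-BAFF-TGFβ. *Lyz2* was at 94.0 and 278 CPM in mouse 2 and at 9.62 and 40.9 CPM in mouse 3. Of the 9 genes, mouse 2 was the highest of its genotype for 4 and the lowest for 3 in LPS-IL-4, and the highest for 4 and the lowest for 5 in LPS-BAFF-TGFβ. Without mouse 2 the median log2 fold change of the 9 was 1.38 in LPS-IL-4 and 1.52 in LPS-BAFF-TGFβ, and without the deep library of control mouse 1 it was 1.45 in LPS-BAFF-TGFβ.

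**Figure D3:**
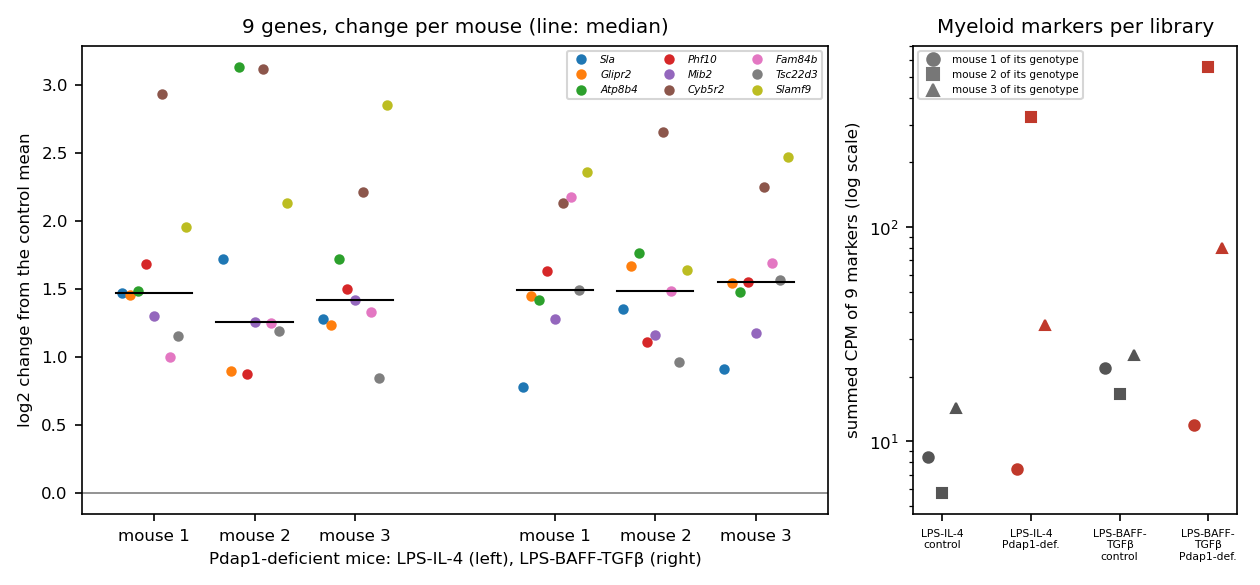
Left, log2 change of each gene from the control mean of its culture in each Pdap1-deficient mouse, with a line at the median of the 9 genes; right, summed CPM of 9 myeloid markers in each library on a log scale. The medians lie between 1.25 and 1.55 in all 6 libraries, and the marker sums of the Pdap1-deficient mice run from 7.39 to 559 CPM. The genes were chosen by their higher level in these mice, so raised medians follow from the choice. The part of myeloid cells in the change of the 9 genes was not tested.

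Markers of other cell types were summed in the same way. The summed level of 7 NK cell markers was at most 5.41 CPM and that of 6 erythroid markers at most 23.7 CPM in any library. For 6 dendritic cell markers it was 22.6 to 33.8 CPM in all LPS-IL-4 libraries, 125 to 144 CPM in control and 75.6 to 111 CPM in Pdap1-deficient LPS-BAFF-TGFβ libraries. The sum of 8 plasmablast markers was 634 to 684 CPM in control and 754 to 903 CPM in Pdap1-deficient LPS-IL-4 libraries, and 472 to 532 and 480 to 530 CPM in LPS-BAFF-TGFβ libraries. *Xbp1* and *Irf4* made up most of this sum in every library. In LPS-IL-4 *Irf4* and *Prdm1* were higher in Pdap1-deficient mice without overlap, and *Sdc1* was lower without overlap. *Sdc1* was at 6.42 CPM or more in control and 5.84 CPM or less in Pdap1-deficient mice there. A change in the number of plasmablasts cannot be read from the sum. Among all these markers, only *Prdm1*, which encodes the plasma cell factor Blimp-1, was called between genotypes by edgeR. Its log2 fold change was 1.82 ± 0.16 in LPS-IL-4 (adjusted p = 0.00032 in edgeR). By DESeq2 1 myeloid marker was called in each culture. Many markers did not pass the filter and could not be called. In LPS-IL-4 1 of 9 T cell, 2 of 7 NK cell, 3 of 9 myeloid and 1 of 6 erythroid markers were tested. With LPS-BAFF-TGFβ 0 T cell and 0 NK cell markers were tested. The part of these markers in the values of the 9 genes was not tested.

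Per kilobase of exon, the 9 genes covered a wide range of levels. *Phf10* and *Glipr2* had the highest mean in each of the 4 groups, with 11.8 and 10.8 CPM per kb in control LPS-IL-4 cultures, where the ranges of mice overlapped, and 10.02 and 5.50 CPM per kb in control LPS-BAFF-TGFβ cultures, where they did not. In control LPS-IL-4 cultures *Sla* (3.74), *Mib2* (2.15), *Tsc22d3* (2.02), *Fam84b* (0.773), *Atp8b4* (0.482), *Slamf9* (0.312) and *Cyb5r2* (0.0619) followed. Of these neighbours, *Mib2* and *Tsc22d3*, and *Atp8b4* and *Slamf9*, overlapped between mice. In control LPS-BAFF-TGFβ cultures *Sla* (2.34), *Atp8b4* (2.13), *Mib2* (1.84), *Tsc22d3* (1.71) and *Slamf9* (1.63) each overlapped with the next, above *Cyb5r2* (0.363) and *Fam84b* (0.247). In Pdap1-deficient LPS-BAFF-TGFβ cultures *Slamf9* (7.47) and *Atp8b4* (6.24) ranked 3 and 4, while with LPS-IL-4 the same mice had them at ranks 7 and 6 (1.93 and 2.44). The ranges of *Slamf9* and *Atp8b4* overlapped between these mice in both cultures. *Atp8b4* also overlapped with *Sla*, next in rank, with LPS-BAFF-TGFβ. With LPS-IL-4 *Tsc22d3* overlapped with *Atp8b4*, and *Slamf9* with *Fam84b*. *Cyb5r2* was the lowest in both LPS-IL-4 groups and *Fam84b* in both LPS-BAFF-TGFβ groups.

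**Figure D4:**
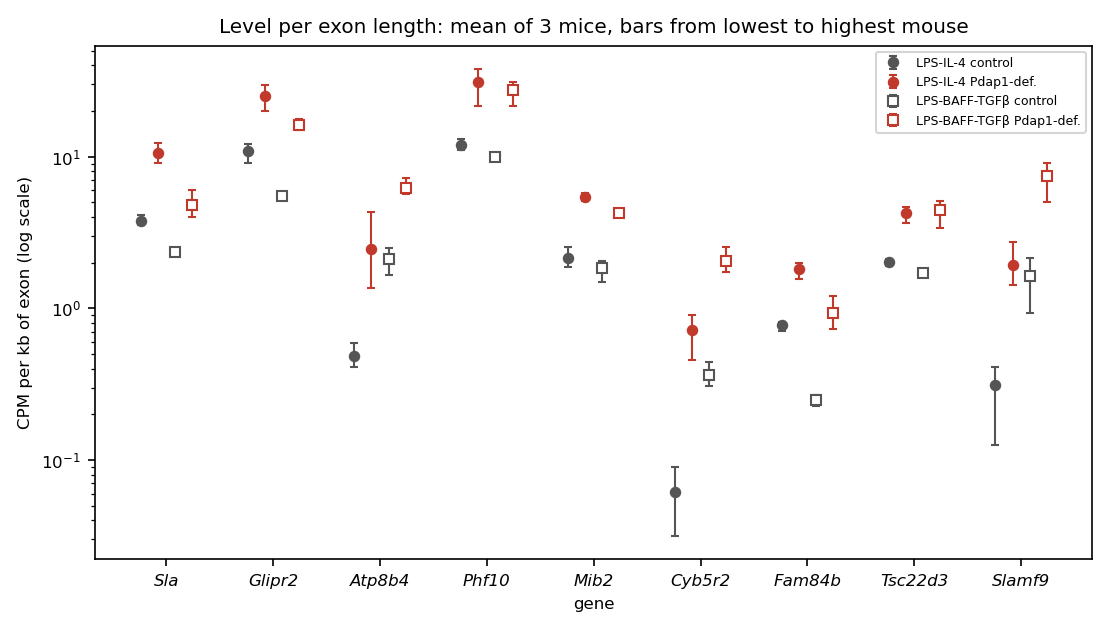
Mean level in CPM per kilobase of exon (log scale) of the 9 genes in the 4 groups, with bars from the lowest to the highest of 3 mice, filled circles for LPS-IL-4, open squares for LPS-BAFF-TGFβ, grey for control and red for Pdap1-deficient mice. *Atp8b4*, *Cyb5r2* and *Slamf9* sit higher with LPS-BAFF-TGFβ and *Sla*, *Glipr2* and *Fam84b* with LPS-IL-4.

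The difference between the cultures was not used to choose the genes and was tested within each genotype, as LPS-BAFF-TGFβ over LPS-IL-4. The cultures of a mouse come from the same animal, and values with the mouse as a block are given where they change a call. In control mice 5 of 8 genes tested were called, against 19.3% of all genes tested (edgeR, quasi-likelihood, p adjusted by Benjamini-Hochberg, here and below). *Slamf9* (log2 fold change 2.41 ± 0.48, adjusted p = 0.0101) and *Atp8b4* (2.13 ± 0.23, adjusted p = 0.00044) were higher with LPS-BAFF-TGFβ. *Fam84b* (−1.67 ± 0.22, adjusted p = 0.0013), *Glipr2* (−0.97 ± 0.14, adjusted p = 0.0021) and *Sla* (−0.68 ± 0.11, adjusted p = 0.0036) were higher with LPS-IL-4. For these 5 genes the 3 control mice of one culture did not overlap those of the other. The same held for *Phf10* and *Tsc22d3*, which were not called. The share of all genes with this arrangement was not computed, and nothing is read from it. *Cyb5r2* was removed by the filter on low counts, and without a filter it had a log2 fold change of 2.47 ± 0.63 (adjusted p = 0.0101 in edgeR). *Phf10* (−0.24 ± 0.10, adjusted p = 0.143), *Tsc22d3* (−0.23 ± 0.15, adjusted p = 0.337) and *Mib2* (−0.21 ± 0.19, adjusted p = 0.492) were not called. These 5 calls were made again with each of the 6 control libraries left out in turn. *Slamf9*, with 14 counts in the 3 LPS-IL-4 libraries, passed the filter only through the culture in which it was high, and a minimum of 10 counts in every library removed it, which left 4 calls.

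In Pdap1-deficient mice 5 of 9 genes were called, against 11.5% of all genes tested. With the mouse as a block, 6 of 9 were called, against 26.4% of all genes tested. *Slamf9* (log2 fold change 1.98 ± 0.33, adjusted p = 0.0037) and *Cyb5r2* (1.49 ± 0.32, adjusted p = 0.0153) were higher with LPS-BAFF-TGFβ, and *Sla* (−1.14 ± 0.17, adjusted p = 0.0025), *Fam84b* (−0.95 ± 0.23, adjusted p = 0.0267) and *Glipr2* (−0.62 ± 0.15, adjusted p = 0.0269) with LPS-IL-4. *Atp8b4* was not called (1.34 ± 0.49, adjusted p = 0.185), but this depended on the model and on 1 library. At the same fold change it was called by DESeq2 (adjusted p = 0.0013) and by edgeR with all 12 libraries in one fit (adjusted p = 0.0367), and without the LPS-IL-4 culture of mouse 2, the library with 28.9 CPM, edgeR gave 2.06 and an adjusted p of 1.5e-06. *Mib2* (−0.34 ± 0.13) had an adjusted p of 0.122, and 0.0351 with the mouse as a block. *Phf10* (−0.18 ± 0.22, adjusted p = 0.711) and *Tsc22d3* (0.06 ± 0.18, adjusted p = 0.887) were not called. With 1 library left out, between 2 and 6 of the 9 were called: 2 without LPS-IL-4 mouse 3, 3 without LPS-BAFF-TGFβ mouse 2 or mouse 3, and 6 without LPS-IL-4 mouse 2. *Sla* and *Slamf9* were called in all 6 of these fits, whereas *Glipr2* lost its call in 4, *Fam84b* in 3 and *Cyb5r2* in 2.

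**Figure D5:**
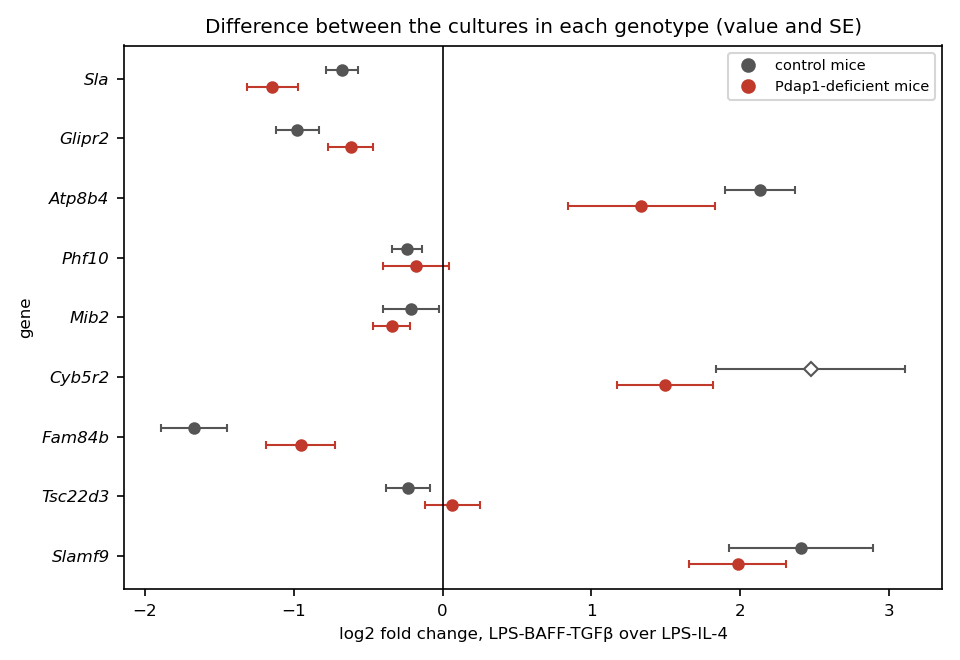
Log2 fold change of LPS-BAFF-TGFβ over LPS-IL-4 cultures (horizontal axis) for the 9 genes in control (grey) and Pdap1-deficient (red) mice. Bars are standard errors derived from the edgeR fit, with 3 mice per culture. The open diamond is *Cyb5r2* in control mice, from a fit without a filter on low counts, and *Slamf9*, *Atp8b4* and *Cyb5r2* lie to the right of 0 in both genotypes.

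The genotype by culture term, the difference between the changes with Pdap1 loss in LPS-BAFF-TGFβ and in LPS-IL-4, is built from the comparisons that chose the genes and is given as a description. It was largest in size for *Cyb5r2* (−0.97 ± 0.57 on the log2 scale), *Atp8b4* (−0.79 ± 0.55) and *Fam84b* (0.71 ± 0.31), and between −0.47 and 0.36 for the other 6. For *Atp8b4* it was −0.06 without the LPS-IL-4 culture of Pdap1-deficient mouse 2. In edgeR 0 of 15794 genes were called (0%), with 755 genes at an unadjusted p under 0.05, 2 of them among the 9. By DESeq2 6 genes were called, and none of these 6 was among the 9.

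Likeness between the 9 genes over the 12 libraries differed from pair to pair. Pearson's r of log2 CPM between the 36 pairs lay between 0.07 (*Atp8b4* and *Fam84b*) and 0.94 (*Phf10* and *Mib2*), with a median of 0.75. After each group's mean was removed, r lay between −0.83 (*Atp8b4* and *Phf10*) and 0.62 (*Sla* and *Atp8b4*) with a median of 0.02, over 12 values that share libraries and depth. By r over the 12 libraries, the gene most like *Phf10* was *Psat1* (0.99), like *Glipr2* *Slc3a2* (0.99), like *Mib2* *Aldh1l2* (0.98), like *Tsc22d3* *Gpt2* (0.97) and like *Fam84b* *Slc7a1* (0.96). These values include the genotype difference by which the 9 genes were chosen, and nothing is read from the names. The gene most like *Sla* was *Gm20696* (0.98), like *Atp8b4* *Serpinb6a* (0.98), like *Cyb5r2* *Mgea5* (0.97) and like *Slamf9* *Kdm4a* (0.95). The second in rank were *Arl14ep* for *Phf10* (0.99), *Lrrfip2* for *Atp8b4* (0.98), *Cars* for *Mib2* (0.98), *Aars* for *Glipr2* (0.97), *Ptpn22* for *Sla* (0.97), *P2ry10* for *Cyb5r2* (0.97), *Slc6a9* for *Tsc22d3* (0.97), *Tnks1bp1* for *Fam84b* (0.96) and *Kif13a* for *Slamf9* (0.94).

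Relatives and partners of the 9 genes were described in 11 lists with 125 other genes. In LPS-IL-4 cultures 7 of 99 tested were called higher and 1 lower (8.08% in all), beside 2.79% higher and 2.12% lower among all genes tested. In LPS-BAFF-TGFβ cultures 0 of 94 were called by edgeR (all genes, 0.455% higher and 0.0071% lower), with 7 at an unadjusted p under 0.05 and 0 by DESeq2. The median log2 fold change over these genes was 0.13 and 0.07. Each list count below is for LPS-IL-4, from edgeR with p adjusted by Benjamini-Hochberg, and in each list with a call it fell to 0 in at least 1 fit with a mouse left out.

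Among 9 partners of SLAP none was called (3 at an unadjusted p under 0.05, 1 by DESeq2). The B cell receptor kinase genes *Syk* (log2 fold change 0.42, adjusted p = 0.0505) and *Lyn* (0.31, adjusted p = 0.0937) came nearest. Of 7 SLAM family and SAP adaptor genes tested, *Slamf7*, a receptor of activated lymphocytes, fell from 112 ± 1.96 to 81.4 ± 12.7 CPM (SD, n = 3; −0.48, adjusted p = 0.047), in the direction opposite to *Slamf9*.

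Of 9 flippase genes tested, *Atp8a1* rose from 49.1 ± 5.25 to 79.5 ± 17.7 CPM (SD, n = 3; 0.68, adjusted p = 0.0367). Of 6 cytochrome b5 and reductase genes, *Cyb5a*, which encodes an electron acceptor of the reductases, rose by 0.46 (adjusted p = 0.0366). Of 8 genes of the GLIPR family and Beclin 1 complexes, *Glipr1* rose from 13.6 ± 1.83 to 23.4 ± 2.98 CPM (SD, n = 3; 0.78, adjusted p = 0.0228). *Fam84a*, the relative of *Fam84b*, did not pass the filter in either culture.

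Of 21 PBAF and BAF subunits, *Smarca2*, which encodes the ATPase BRM, rose by 0.69 (adjusted p = 0.03), and the other 20 were not called (median of the list −0.02). None of 15 Mindbomb and Notch pathway genes was called (5 at an unadjusted p under 0.05, 0 by DESeq2), with *Rbpj* at 0.30 (adjusted p = 0.121) and *Jag2* at 1.35 (adjusted p = 0.137). None of the 3 other TSC22 family genes was called either (0 at an unadjusted p under 0.05, 0 by DESeq2), with *Tsc22d1* at 0.76 (adjusted p = 0.244) and *Tsc22d2* at 0.13 (adjusted p = 0.516). Of 9 genes of the glucocorticoid receptor and its targets, *Ddit4*, an mTORC1 inhibitor that also responds to stress, rose from 6.30 ± 1.45 to 16.1 ± 2.57 CPM (SD, n = 3; 1.34, adjusted p = 0.0066). Of 12 FoxO targets of lymphocytes 2 rose, *S1pr1*, which encodes a receptor for lymphocyte egress, and *Irs2*, an insulin receptor substrate (0.82 and 1.27, adjusted p = 0.0234 and 0.0428).

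Atf4 targets, a list known from earlier results on these samples and so no independent evidence of direction, were called higher for 21 of 23 tested in LPS-IL-4 and 16 of 21 in LPS-BAFF-TGFβ (median log2 fold change 2.45 and 2.09). *Chac1*, a glutathione-degrading enzyme, rose by 3.19 and 4.69, *Aldh1l2*, a mitochondrial folate enzyme, by 2.79 and 2.83, and *Asns*, asparagine synthetase, by 3.0 and 3.84 on the log2 scale. With 1 mouse left out, between 11 and 22 genes of the list were called in LPS-IL-4 and between 11 and 18 in LPS-BAFF-TGFβ.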

How the data were processed

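RNA-seq of 12 libraries from 6 mice was analysed, 3 per genotype, each cultured in both ways. Groups came from the titles and characteristics in the labels and mouse numbers from the design text of the series. The authors deposited counts of reads per Ensembl gene without normalization. The submitters' processing notes name Trim Galore 0.6.1, STAR 2.6, HTSeq 0.9.1 and DESeq2, and the GRCm38 assembly. The annotation release and the strand setting of counting were not given in the sources used here, and the labels name a stranded mRNA kit where the study's methods name one for total RNA. A second table of normalized values was not used.

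GENCODE M21 (GRCm38) supplied symbols, positions and summed exon lengths and held all 55536 features. A count was present in at least 1 library for all but 23840 of them. Promoters came from RefSeq on GRCm38.p6. Groups were compared in pairs in R 4.3.3 with edgeR 4.0.16 (robust quasi-likelihood F test, TMM scaling, genes kept by filterByExpr), at an adjusted p (Benjamini-Hochberg over all genes tested) under 0.05. The SE of a log2 fold change is its size divided by the square root of the F statistic of this test. CPM used TMM-scaled totals, and log2 CPM a prior count of 2. Fold changes within mice are relative to the mean log2 CPM of the control mice. The smallest p of an exact permutation test of 3 against 3 mice is 0.1, so none was used. No library was a copy of another of its group by a chi-square test of counts. The fits were tested on simulated counts with known changes before use.

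The 2 cultures of a mouse come from the same animal, by the design text. Deviations from the group means of same-numbered libraries correlated at −0.18 to 0.34 in control and 0.29 to 0.62 in Pdap1-deficient mice. Libraries of different number correlated at −0.41 to 0.37 in control and −0.58 to 0.01 in Pdap1-deficient mice. Same-numbered libraries thus stood apart in Pdap1-deficient mice only. Alternatives were DESeq2 1.42.0, its size factors, no filter, a minimum of 10 counts in every library, thinning to the smallest library, all 12 libraries in one fit, a prior count of 0.5, the replicate number as a block and each library left out in turn. The 9 genes and the lists were chosen with earlier results of these data known. Named genes are the 9, *Pdap1*, genes that overlap them, from each list up to 3 with the smallest adjusted p past the threshold in either culture (otherwise up to 2 with the smallest p), the 2 genes most correlated with each, and cell type markers. *Xist* was added after its values were seen. Lists of B cell, T cell, NK cell, myeloid, dendritic, erythroid and plasmablast markers were summed per library. Some genes of these lists are not reported here.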

Additional observations from a re-analysis of the deposited data

How the results depend on the processing

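The median log2 fold change of the 9 genes between genotypes lay between 1.31 and 1.44 in LPS-IL-4 and between 1.45 and 1.63 in LPS-BAFF-TGFβ with 1 library left out, the lowest of these without LPS-BAFF-TGFβ control replicate 1, and no value of any result changed sign where it was called. The numbers of genes called moved as well. They depend on a threshold and cannot be compared in stability with a median of genes chosen by this difference. In LPS-IL-4 741 genes were called between genotypes, 1217 with DESeq2, 1694 without a filter, 173 with high or low *Xist* as a covariate, an alternative chosen after seeing the data, and between 69 and 1759 with 1 library left out. In LPS-BAFF-TGFβ 65 were called, 172 with DESeq2, 257 without a filter, 133 with all 12 libraries in one fit, 42 with the *Xist* covariate and between 19 and 116 with 1 library left out. The culture difference gave 2874 genes in control mice (1608 to 4858 with 1 library left out) and 1675 in Pdap1-deficient mice (908 to 2235, and 3854 with the mouse as a block). Of the 9 genes, 5 were called in Pdap1-deficient mice, between 2 and 6 with 1 library left out, and 5 in control mice in each such fit. The genotype by culture term had 0 calls, 6 with DESeq2, 1 without a filter and between 0 and 1 with 1 library left out. The cause of these differences was not tested.

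Control and Pdap1-deficient mice share only replicate numbers. Deviations of same-numbered mice correlated between −0.20 and 0.01 in LPS-IL-4 and between −0.21 and 0.10 in LPS-BAFF-TGFβ, and with the replicate block 641 and 48 genes were called between genotypes. For the culture differences the block gave 1989 genes in control mice, and apart from *Mib2* in Pdap1-deficient mice it changed no call of the 9 genes. Depth limits *Cyb5r2* and *Slamf9* in control LPS-IL-4 cultures, with 6 and 14 counts in all.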
